A study of Sus scrofa with 35 samples.

Results

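The insulin-like growth factor (IGF) genes examined here were IGF1, the receptors IGF1R and IGF2R, and the binding proteins IGFBP2, IGFBP3, IGFBP4, IGFBP5, IGFBP6 and IGFBP7. Their members were the non-control array probes carrying one of these 9 symbols as gene name, in any letter case, which gave 32 of 60305 probes. A probe was kept when the scanner marked it as well above background on 75% or more of the arrays of any 1 group, which left 41517 probes, 30 of the 32 among them. All 9 genes had at least 1 kept probe. The probes not kept were IGF1 A_72_P306168, above background on 4 of 35 arrays, and IGFBP4 O5921, above background on 0 arrays.

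The arrays measured total RNA of longissimus dorsi, the loin muscle, from castrated male pigs of the Creole breed, the Large White breed and their F1 cross, 1 array per pig. Thermoneutral (TN) pigs, 6 of each breed type, are labelled 24 °C and were slaughtered before the heat exposure. Heat stressed (HS) pigs, 6 Creole, 5 F1 and 6 Large White, are labelled 30 °C, whereas the protocol describes 5 days at 32 °C, and all pigs had entered the climatic room at 11 weeks of age. HS and TN pigs thus also differed in slaughter day and pen, which cannot be told apart from temperature, and pigs of a breed came from few litters that the labels do not name.

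IGF1 is a secreted growth factor made in liver and muscle under growth hormone, and it acts through the receptor tyrosine kinase IGF1R to drive protein synthesis and fibre growth. IGF2R, also the mannose-6-phosphate receptor, takes up and degrades IGF2. The binding proteins hold IGFs in blood and in the matrix around cells, prolong their life and limit or deliver them to the receptor. IGFBP6 binds IGF2 in preference to IGF1, and IGFBP7 binds IGFs only weakly.

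Because probes of one gene gave different answers, the sequences of those that the results turn on are shown, 5′ to 3′ as in the scanner files. The files give no genome build, strand or position for them. Capitals mark a run shared exactly with another probe. The first pair below are IGFBP6 probes that hold the same 28 bases, and so do not measure the transcript independently. The other IGFBP6 probes, O9305 and A_72_P442649, share no such run with them. The letters AATAAA, those of the common polyadenylation signal, lie in the shared run, and 10.3% of all probes hold them on the printed strand.
IGFBP6 A_72_P088481, bases 31 to 60: gtGGGGTATTAATAAAGCCGTGTTGGGGTC
IGFBP6 A_72_P710138, bases 27 to 56: gcGGGGTATTAATAAAGCCGTGTTGGGGTC
IGFBP6 O9305: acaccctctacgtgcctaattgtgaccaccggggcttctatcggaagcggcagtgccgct
IGFBP6 A_72_P442649: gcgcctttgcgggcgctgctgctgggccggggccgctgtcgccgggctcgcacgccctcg
The 3 kept IGF1 probes shared no long run among themselves. In O14150, the capitals mark a run of 16 bases also present in a probe named TC526981, and a shifted run of the same length is in a probe named IGSF1.
IGF1 A_72_P232282, bases 1 to 30: gtttgaaaacatttcaaaagatgggcattc
IGF1 O14150, bases 15 to 44: cctctTTGTGCCTCAGTTTCCttatgtgta
The IGFBP7 probes A_72_P680993 and O10536 were designed on opposite strands. Their capitals are the reverse complement of each other.
IGFBP7 A_72_P680993: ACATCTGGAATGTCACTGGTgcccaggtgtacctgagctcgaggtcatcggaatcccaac
IGFBP7 O10536: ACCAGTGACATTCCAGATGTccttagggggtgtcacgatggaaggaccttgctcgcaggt

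All values below are log2 of the quantile-normalised median pixel intensity, and a difference of 1 is a doubling. Temperature and breed were tested with limma, and a probe was called when its Benjamini-Hochberg adjusted p over all 41517 kept probes was under 0.05. Each gene is counted by its main probe, the kept probe with the highest mean, and levels of different probes are not compared. The share of probes above background ran from 58.4% to 75.9% over the arrays. All 7 muscle fibre markers were above background on every array. The mean of 11 connective tissue markers ran from 11.44 to 12.97 in TN and from 12.44 to 13.22 in HS arrays, and that of 12 leukocyte markers from 7.80 to 10.37 and from 9.07 to 10.69. Both were higher in HS pigs (0.30, permutation adjusted p = 0.00087, and 0.67, adjusted p = 0.00722). By sign 11 of 11 and 11 of 12 markers were higher, of which limma called 4 and 5. Single markers ran from 0.0006 (PDGFRA) to 0.84 (FN1) in the connective list and from -0.02 (PTPRC) to 2.26 (LYZ) in the leukocyte list. No marker of either list was below background throughout. Lower in HS pigs were the means of erythroid (-0.72), liver (-0.51), satellite cell (-0.30), endothelium (-0.18) and muscle fibre markers (-0.07), with permutation adjusted p from 0.00012 to 0.00931. The fibre list was mixed: 2 of 7 markers were higher, DES was called higher (0.24, limma adjusted p = 0.0031) and TTN lower (-0.37, adjusted p = 0.017). Of 6 endothelium markers 1 was higher. Only 3 liver genes, 2 erythroid genes and 1 satellite cell gene were measured, with 0 higher. The part of these lists in the member results was not tested. In bulk muscle, more cells of a type and more RNA per cell cannot be told apart.

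After heat, the IGF family changed at few probes: 3 of 30 were called, all higher in HS, and these were 1 IGF1 and 2 IGFBP6 probes. Among all kept probes, 16.0% were called in either direction and 7.73% were called higher in HS. By main probe, 1 of 9 genes was called, IGFBP6, against 8.38% of 9341 symbols called higher and 9.88% called lower. The share of members called was thus near that of all probes and symbols. All 9 main probes had a positive HS minus TN difference, from 0.0091 in IGF2R to 0.36 in IGFBP6 with a median of 0.12, against -0.03 over all symbols. With each array scaled to the 75th percentile, 8 of 9 were positive and IGFBP7 was at -0.0149, and with the leukocyte or connective marker mean as a covariate 6 of 9 were positive.

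IGF1, the ligand, was higher after heat on A_72_P232282. In Creole pigs its lowest, median and highest values were 7.61, 8.24 and 8.60 at TN and 8.44, 8.62 and 9.04 at HS. In F1 pigs they were 8.18, 8.39 and 8.69 at TN, and the 5 HS arrays read 8.79, 8.53, 8.90, 9.02 and 8.60. In Large White pigs they were 7.95, 8.37 and 8.73 at TN and 8.52, 9.01 and 9.19 at HS. Within each breed the HS and TN arrays overlapped, yet 17 of 17 HS arrays lay above the TN mean of their own breed and 10 of 17 above the highest TN array of any breed.
The mean was 8.30 ± 0.30 (SD, n = 18) at TN and 8.81 ± 0.25 (SD, n = 17) at HS, a difference of 0.51 ± 0.09 (SE), or 1.42-fold (limma, adjusted p = 0.000268). Within slides 1 to 4, each of which held all 3 breeds at both temperatures, it was 0.50, 0.26, 0.71 and 0.43. IGF1 thus was higher after heat on this probe under every alternative setting tried and with each array left out. The smallest difference, 0.35, came with the leukocyte mean as a covariate (adjusted p = 0.0151), and the connective mean gave 0.36 (adjusted p = 0.0275).

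The other IGF1 probes did not show a called rise. On the main probe O14150, Creole arrays had a lowest, median and highest value of 9.03, 9.54 and 9.61 at TN and 9.50, 9.66 and 9.74 at HS. Large White arrays had 9.32, 9.58 and 9.78 at TN and 9.47, 9.83 and 10.22 at HS. F1 arrays had 9.49, 9.57 and 9.80 at TN, and 9.46, 9.44, 9.70, 9.85 and 9.58 at HS. The groups overlapped in every breed, with 13 of 17 HS arrays above the TN mean of their breed. The means were 9.54 ± 0.18 at TN and 9.71 ± 0.21 at HS (SD, n = 18 and 17), a difference of 0.17 ± 0.06 (SE) that missed the threshold in limma (adjusted p = 0.0622). Under median scaling (0.25, limma adjusted p = 0.0354) and array weights (0.16, adjusted p = 0.0373), it was called. With the leukocyte, connective or brightness covariate it shrank to 0.0377, 0.0308 and 0.0838 (adjusted p = 0.752, 0.862 and 0.471). The mean of all kept IGF1 probes was called at 0.25 (adjusted p = 0.0108), but it includes A_72_P232282 and is not a measure of O14150. The probe TC526981, which shares the capitals shown above with O14150, was lower in HS by limma (-0.22, adjusted p = 0.0111), and IGSF1 was at 0.01.
A_72_P185381, designed on a record of an alternatively spliced IGF1 messenger RNA, differed by 0.08 ± 0.13 (SE, limma adjusted p = 0.737), with 9 of 17 HS arrays above the TN mean of their breed. The 3 IGF1 probes followed each other loosely over arrays once group means were removed, with r of 0.49, 0.37 and 0.07. A probe outside the naming rule shares 58 bases with A_72_P232282. It differed by 0.46 (limma, adjusted p = 0.00161) and, with nearly the same sequence, adds no independent measurement.

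**Figure D1:**
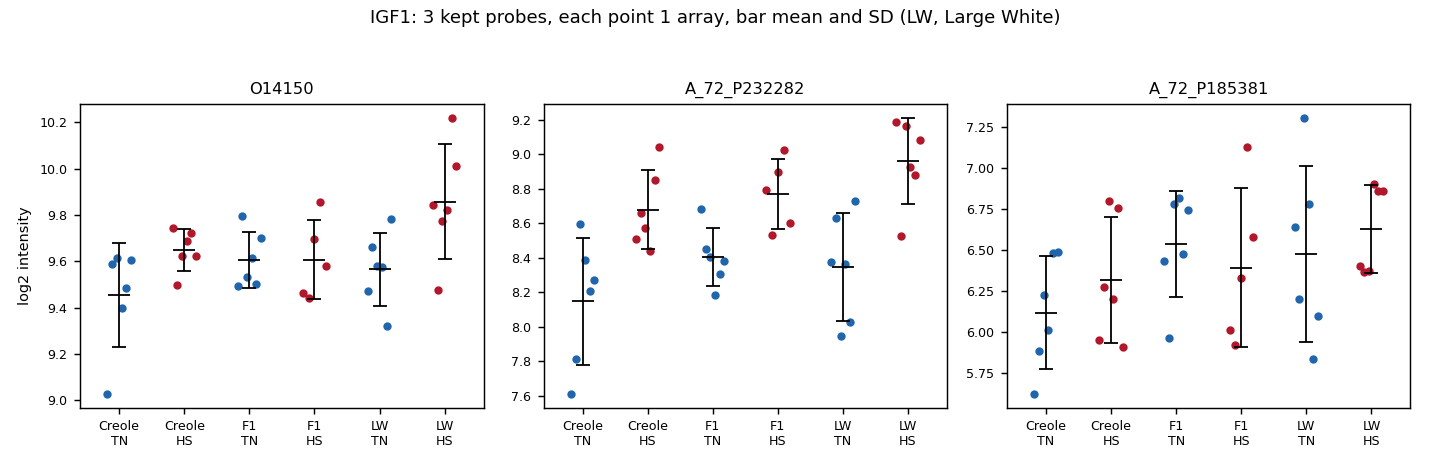
IGF1 level (log2 normalised intensity, axis not starting at 0) on its 3 kept probes in each breed and temperature group, 1 point per array, with the mean and SD. On A_72_P232282 all 17 HS arrays sit above the TN mean of their breed, whereas on O14150 13 of 17 and on A_72_P185381 9 of 17 do.

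By breed, IGF1 was not called. The Creole minus Large White difference was -0.16 on O14150, -0.24 on A_72_P232282 and -0.34 on A_72_P185381 (limma, smallest adjusted p = 0.244). With slide as a block, A_72_P185381 was called at -0.34 (adjusted p = 0.0182). Within breeds, the HS minus TN difference on A_72_P232282 was 0.53 ± 0.15 (SE) in Creole, 0.37 ± 0.16 in F1 and 0.62 ± 0.15 in Large White pigs (limma, adjusted p = 0.0545, 0.508 and 0.0714). The Creole value was called under median scaling and normexp background correction (adjusted p = 0.0434 and 0.0481), and the Large White value with spike-in scaling, slide as a block and array weights (adjusted p = 0.0321, 0.046 and 0.0199). The interaction test gave this probe an adjusted p of 0.963.

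The receptors were not called in either contrast. IGF1R, which relays the IGF1 signal, averaged 8.17 ± 0.28 at TN and 8.31 ± 0.28 at HS on O13126 (SD, n = 18 and 17), a difference of 0.14 ± 0.10 (SE, limma adjusted p = 0.327). Scaling to the spike-in controls gave 0.28 and a call (adjusted p = 0.0416). Its other probes were at -0.01 and 0.08, the latter (A_72_P146851) above background on only 16 of 35 arrays. With group means removed, O13126 followed these probes little (r = -0.04 and 0.25), whereas they followed each other (r = 0.61). Values of O13126 thus may not hold for IGF1R on its other probes. IGF1R was the 1 member whose main probe was higher in Creole than Large White pigs, by 0.07 (adjusted p = 0.841).
IGF2R, the receptor that clears IGF2, averaged 11.97 ± 0.19 at TN and 11.99 ± 0.17 at HS on O10348 (SD, n = 18 and 17). Its difference of 0.0091 ± 0.06 (SE, limma adjusted p = 0.936) was the smallest among the main probes, and its other 4 probes lay between -0.06 and 0.01. Creole pigs were at 11.93 and Large White pigs at 12.08, and this difference, -0.15, passed at an unadjusted p of 0.0436 but not after adjustment (0.303). A probe named M6P/IGF2R carries the same 60 bases, and it gave 0.06 and -0.11 for the same contrasts.

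IGFBP6 was the member that changed with heat and differed between breeds. On its main probe A_72_P088481, Creole arrays had a lowest, median and highest value of 13.13, 13.99 and 14.24 at TN and 14.02, 14.36 and 14.59 at HS. F1 arrays had 13.68, 14.19 and 14.26 at TN, and the HS arrays read 14.40, 14.30, 14.59, 14.81 and 14.15. Large White arrays had 14.31, 14.62 and 14.78 at TN and 14.50, 14.76 and 15.03 at HS. Over both temperatures, limma called Creole minus Large White for 3.64% of all probes and F1 minus Large White for 0.525%. How many of all probes separate the arrays of the breeds completely was not counted, so how unusual such a separation is cannot be told. At TN, every Creole and every F1 array lay below every Large White array, whereas at HS they overlapped, with 4 of 6 Creole and 3 of 5 F1 arrays below the lowest Large White array. A_72_P710138, with its 28 shared bases, separated the breeds in the same way, but the other probes did so only in part or not at all. On O9305, F1 arrays at TN again all lay below every Large White array (6 of 6). Its Creole and Large White arrays overlapped at TN (4 of 6 Creole below) and were apart at HS (6 of 6 below). On A_72_P442649 they overlapped at both temperatures, with 3 of 6 Creole and 4 of 6 F1 arrays below every Large White array at TN.
The group means ran from Large White HS (14.76) over Large White TN (14.55), F1 HS (14.45), Creole HS (14.33) and F1 TN (14.06) to Creole TN (13.83). Only the step from Creole HS to F1 TN, 0.27, exceeded the larger SD of the neighbours.

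Between breeds, 4 of 30 probes were called in the Creole minus Large White contrast, and all were probes of 1 gene, IGFBP6, lower in Creole pigs. Over all kept probes, 3.64% were called and 1.92% were called lower. By main probe 1 of 9 genes was called lower, against 2.23% of symbols lower and 1.50% higher. Large White pigs averaged 14.65 ± 0.23, F1 pigs 14.24 ± 0.31 and Creole pigs 14.08 ± 0.41 on A_72_P088481 (SD, n = 12, 11 and 12). The Creole minus Large White difference was -0.57 ± 0.11 (SE), 1.49-fold (limma, adjusted p = 0.00136), with 12 of 12 Creole arrays below the Large White mean at the same temperature. The other probes gave -0.55, -0.51 and -0.39 (adjusted p = 0.00211, 0.00624 and 0.0107), again with 12 of 12 Creole arrays below.
Within slides 1 to 4 the main probe differed by -0.81, -0.28, -0.61 and -0.54. With the connective marker mean as a covariate it was -0.31 (limma, adjusted p = 0.0192), and O9305 and A_72_P442649 lost the call (-0.26 and -0.23, adjusted p = 0.116 and 0.167). On TN arrays alone it was -0.72 (adjusted p = 0.0576).

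F1 pigs were below Large White pigs by 0.40 on the same probe, with 10 of 11 arrays below the Large White mean at their temperature, a difference of -0.40 ± 0.11 (SE) that was not called in limma (adjusted p = 0.1). No member probe was called in F1 minus Large White, where 0.525% of all probes were. At an unadjusted p under 0.05, 5 of 30 passed, against 4371 of all 41517 probes. These 5 were the IGFBP6 probes and IGF2R O10348. The IGFBP6 value was called under median scaling, spike-in scaling, array weights and the leukocyte covariate (-0.53 to -0.40, adjusted p = 0.00376 to 0.0383). F1 and Creole pigs differed by 0.17 (adjusted p = 0.741), with 0 of 30 member probes called against 0.477% of all. The distance of F1 pigs from the parental midpoint was -0.11 (adjusted p = 0.899), with 0 of 30 called against 0.246%. These last contrasts had 2 and 1 member probes under an unadjusted p of 0.05, against 3685 and 3053 of all 41517 probes.

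With heat, IGFBP6 averaged 14.15 ± 0.42 at TN and 14.51 ± 0.29 at HS on the main probe (SD, n = 18 and 17), a difference of 0.36 ± 0.09 (SE), 1.28-fold (limma, adjusted p = 0.00661). HS arrays lay above the TN mean of their breed in 15 of 17 pigs. A_72_P710138, which shares 28 bases with it, rose by 0.32 (adjusted p = 0.0148). O9305 and A_72_P442649 differed by 0.24 and 0.14 (adjusted p = 0.0721 and 0.208). Within slides 1 to 4 the main probe differed by 0.50, 0.10, 0.68 and 0.31.
IGFBP6 lost the HS call with the connective marker mean as a covariate (0.10, limma adjusted p = 0.462), with the leukocyte mean (0.14, adjusted p = 0.265) and with array brightness (0.29, adjusted p = 0.0741). Brightness was itself higher in HS arrays by 0.18 (permutation adjusted p = 0.0221). Over the 35 arrays, with group means removed, the main probe followed the connective mean with Pearson's r = 0.83 and Spearman's rho = 0.81 (permutation p = 1e-05 for both, the smallest that 100000 permutations can give, adjusted p = 0.000315 and 0.00063 over 126 relations). Without the 2 arrays farthest from the median, r was 0.78. The leukocyte mean gave r = 0.76 and rho = 0.76 (permutation adjusted p = 0.000315 and 0.00063), and r = 0.72 without its 2 farthest arrays. The part of these cell types in the IGFBP6 values was not tested beyond these covariates. Relations to these marker means were not particular to IGFBP6. With the connective and leukocyte means, r was 0.594 and 0.728 for IGFBP4 and 0.664 and 0.651 for IGF1 O14150. IGF2R O10348 gave 0.6 and 0.65, with permutation adjusted p from 0.00036 to 0.0118 over these members. IGF1 A_72_P232282 followed the leukocyte mean (r = 0.545) and IGFBP5 ran opposite to it (r = -0.525, permutation adjusted p = 0.0197 for both). Connective markers were also lower in Creole than Large White pigs, 10 of 11 of them by sign and 3 called in limma, by 0.30 on their mean.

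**Figure D2:**
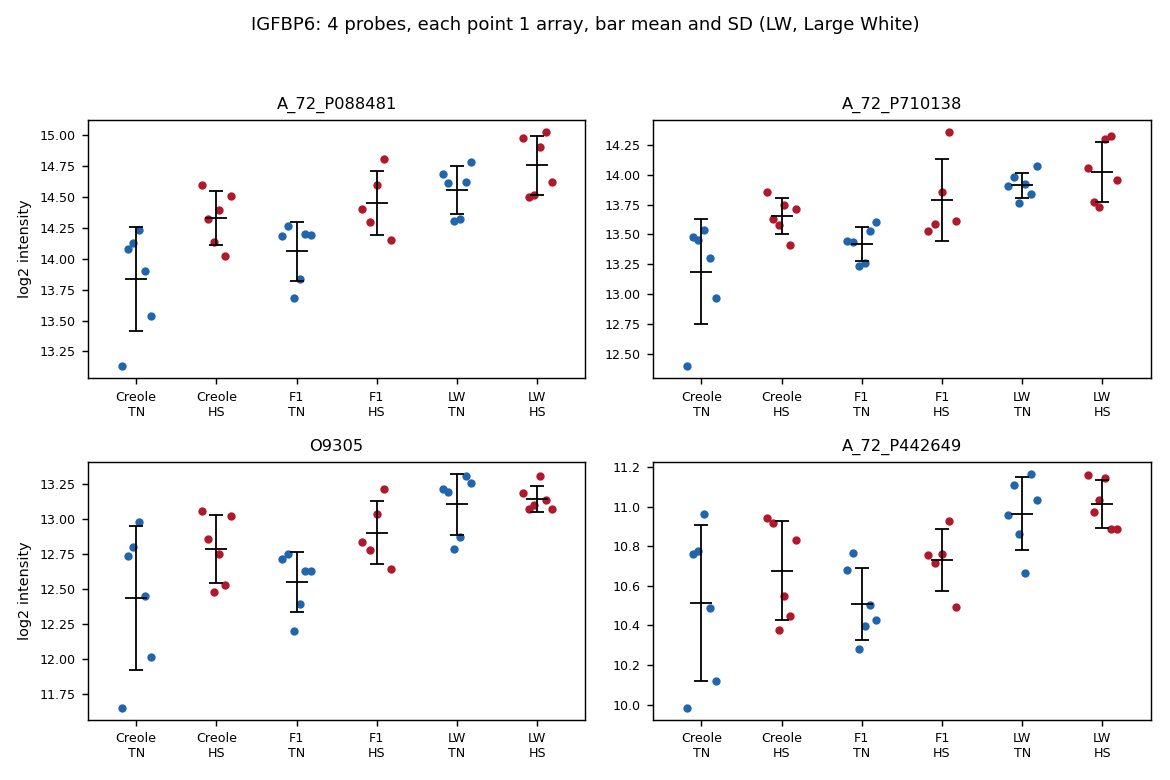
IGFBP6 level (log2 normalised intensity, axis not starting at 0) on its 4 kept probes in each breed and temperature group, 1 point per array, with the mean and SD. On the main probe A_72_P088481 all Creole and F1 arrays at TN lie below the Large White arrays at TN and overlap them at HS, whereas on O9305 Creole and Large White arrays overlap at TN and are apart at HS, and on A_72_P442649 they overlap at both.

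**Figure D3:**
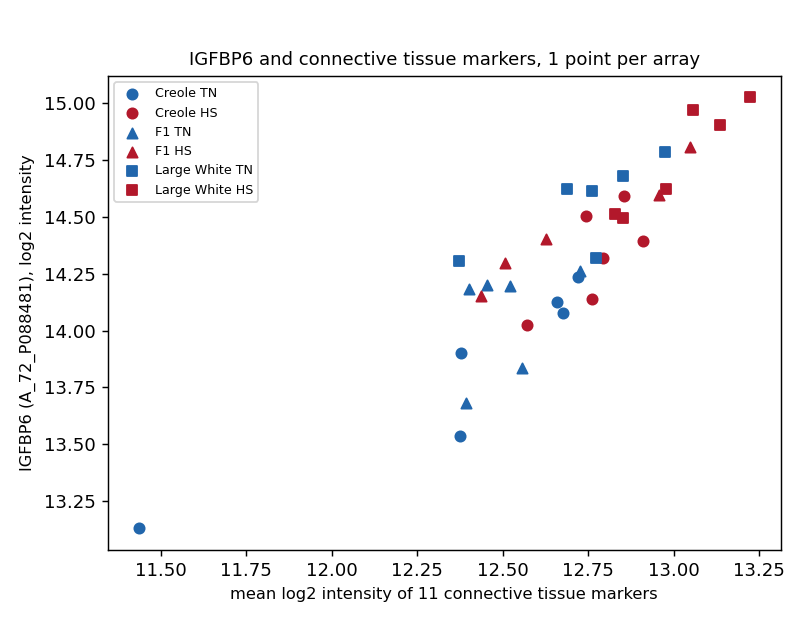
IGFBP6 main probe A_72_P088481 against the mean of 11 connective tissue markers (both log2 normalised intensity, axes not starting at 0), 1 point per array, by breed and temperature. The lowest point on both axes is Creole TN replicate 1, at 13.13 and 11.44, and r with group means removed is 0.83.

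Creole TN replicate 1 was the lowest of all arrays on 9 of the 16 member probes shown with their arrays, 4 of them main probes. Its r with the mean of the other Creole TN arrays was 0.987, and the lowest such r of any array was 0.982. Without it IGFBP6 differed by 0.31 with heat and by -0.50 between Creole and Large White pigs (limma, adjusted p = 0.00915 and 0.00189). IGF1 A_72_P232282 differed by 0.47 with heat (adjusted p = 0.000443). The F1 minus Large White difference of IGFBP6, described above as not called, passed without this array (adjusted p = 0.035).

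Within single breeds, no member probe was called for HS minus TN. The background was 1.91% of probes called in Creole, 0.00482% in F1 and 0.00482% in Large White pigs. At an unadjusted p under 0.05, 4, 6 and 2 of the 30 member probes passed, against 8946, 3444 and 6893 of all 41517 probes. The member share was thus below that of all probes in Creole and Large White pigs and above it in F1 pigs. IGFBP6 differed by 0.49 ± 0.15 (SE) in Creole, 0.39 ± 0.16 in F1 and 0.20 ± 0.15 in Large White pigs (limma, adjusted p = 0.0739, 0.486 and 0.524). The interaction test gave it an adjusted p of 0.963. No probe of any gene, 0%, was called for the interaction of breed and temperature in limma, with 1593 of 41517 at an unadjusted p under 0.05 and 1 of them a member.
That member was IGFBP5, a binding protein made by muscle cells as they differentiate. On A_72_P146706 it differed by 0.74 in F1, -0.31 in Creole and -0.20 in Large White pigs (limma interaction, adjusted p = 0.963). On the main probe O9127, F1 pigs averaged 11.82 ± 0.36 at TN and 12.47 ± 0.24 at HS (SD, n = 6 and 5), Creole pigs 12.13 and 12.04, and Large White pigs 12.38 and 12.22. The F1 arrays ran from 11.33 to 12.29 at TN and from 12.24 to 12.83 at HS and so overlapped narrowly, with a difference of 0.65 ± 0.29 (SE, limma adjusted p = 0.545). Over all breeds IGFBP5 differed by 0.12 ± 0.17 with heat (adjusted p = 0.687) and by -0.21 between Creole and Large White pigs (adjusted p = 0.709).

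The remaining binding proteins were not called. IGFBP4, which restrains IGF action until proteases cut it, averaged 10.24 ± 0.49 at TN and 10.30 ± 0.42 at HS (SD, n = 18 and 17), a difference of 0.06 ± 0.14 (SE, limma adjusted p = 0.808). Its largest difference was by breed, with Creole pigs at 10.07 ± 0.43 and Large White pigs at 10.50 ± 0.45 (SD, n = 12 each). Creole arrays ran from 9.39 to 10.69 at TN and from 9.70 to 10.60 at HS, and Large White arrays from 9.82 to 11.14 and from 10.01 to 11.09, so the breeds overlapped widely. The difference, -0.43 ± 0.17 (SE), had an unadjusted p of 0.0161 and an adjusted p of 0.179, and the second IGFBP4 probe gave -0.33 (adjusted p = 0.234).
IGFBP3, the main carrier of IGF1 in blood, averaged 6.31 ± 0.24 at TN and 6.49 ± 0.37 at HS on O12810, a difference of 0.18 ± 0.10 (SE, limma adjusted p = 0.223), and -0.22 between Creole and Large White pigs (adjusted p = 0.401). IGFBP2, another IGF carrier, averaged 10.04 ± 0.20 at TN, with a difference of 0.07 ± 0.07 (SE) after heat (adjusted p = 0.564), and 3 of its 4 probes overlap by 51 to 54 bases. IGFBP7, a matrix and vessel protein, averaged 15.06 ± 0.18 and 15.16 ± 0.22 on A_72_P422899, a difference of 0.10 ± 0.07 (SE, adjusted p = 0.336). One of its probes, A_72_P268919, is identical over 60 bases to a probe named POLR2B, so its value of -0.07 cannot be assigned to IGFBP7. The opposite-strand probes shown above, A_72_P680993 and O10536, differed by 0.05 and 0.01.

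**Figure D4:**
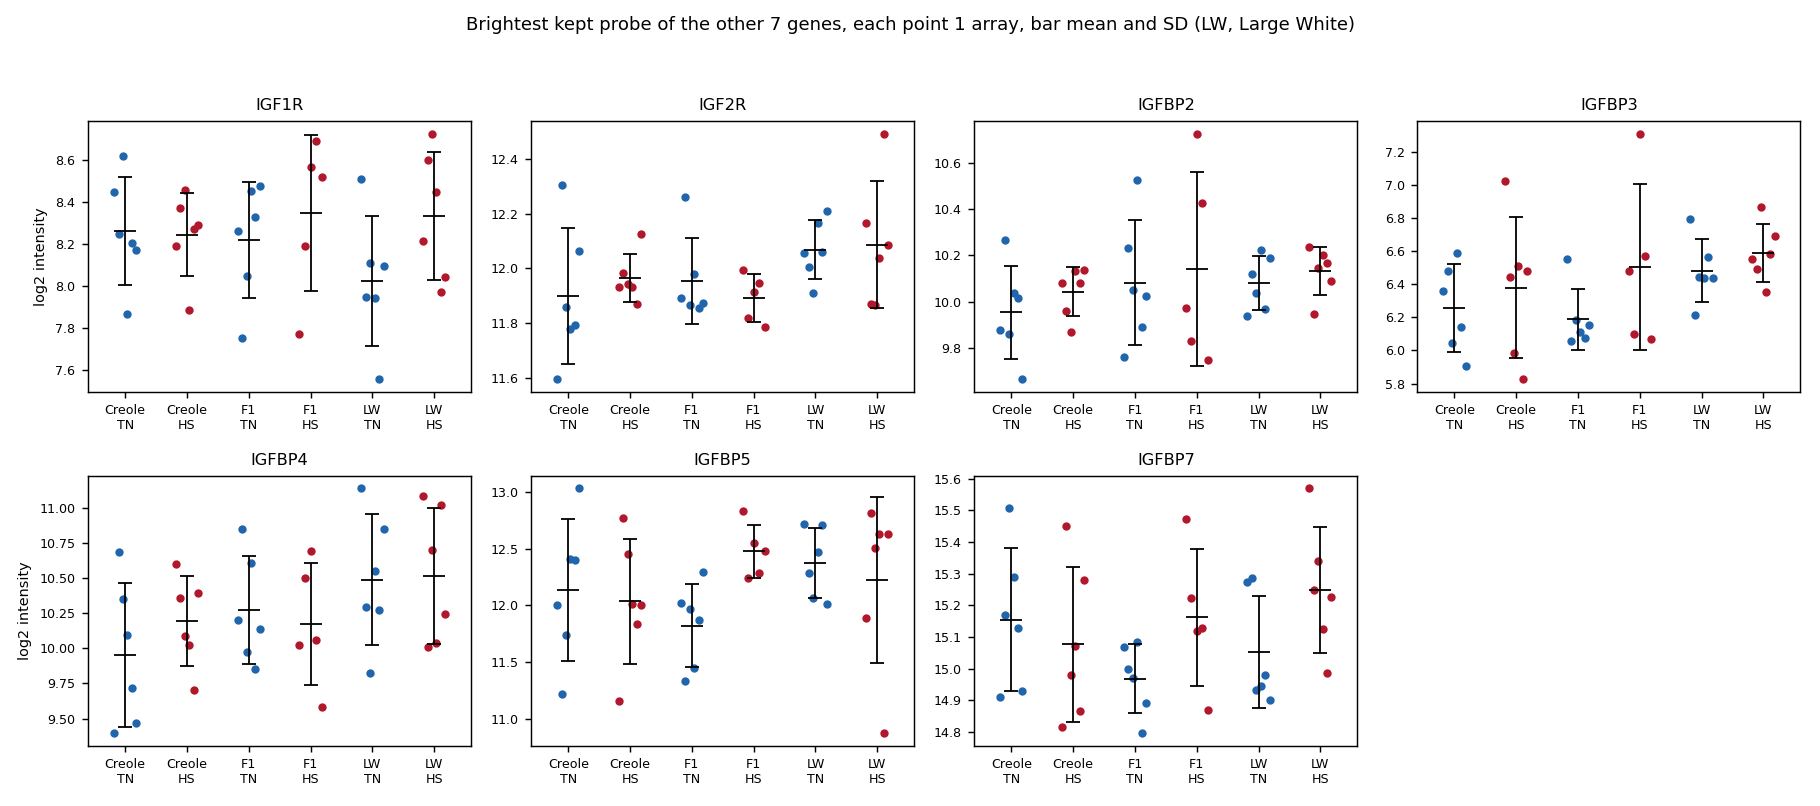
Level (log2 normalised intensity, axes not starting at 0) of the main probe of IGF1R, IGF2R, IGFBP2, IGFBP3, IGFBP4, IGFBP5 and IGFBP7 in each breed and temperature group, 1 point per array, with the mean and SD. HS and TN arrays overlap in every panel, and IGFBP5 shows its widest HS minus TN gap in F1 pigs, 0.65.

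**Figure D5:**
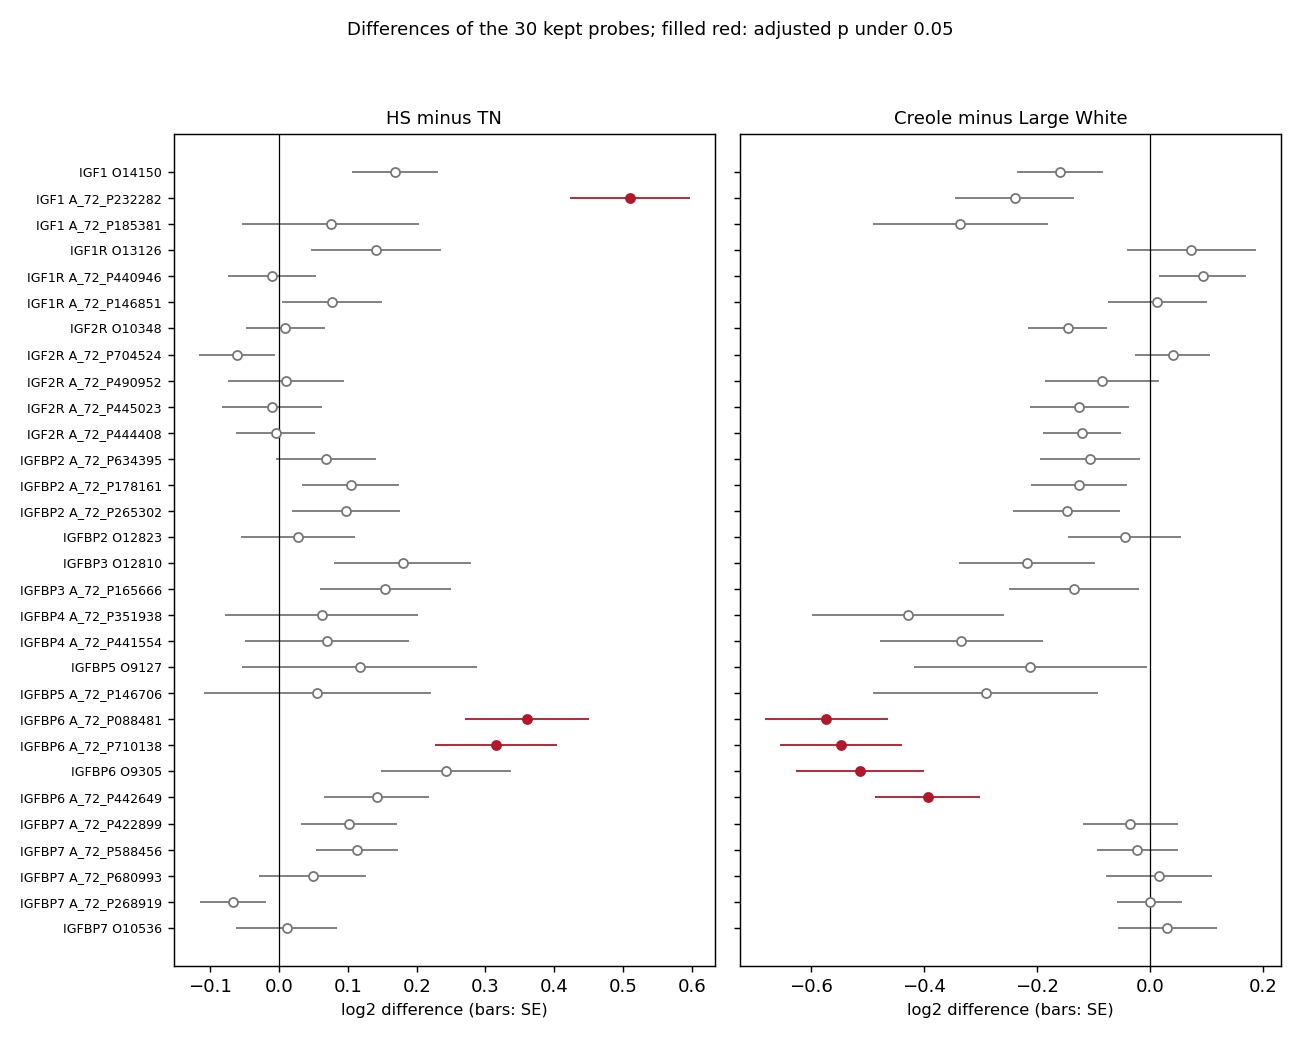
Differences of the 30 kept probes, HS minus TN and Creole minus Large White (log2 difference with SE), with called probes filled in red. The 3 called HS values are 0.51 (IGF1 A_72_P232282), 0.36 and 0.32 (IGFBP6), and the 4 called breed values are all IGFBP6, from -0.57 to -0.39.

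Around the members, 58 of 70 listed genes of the IGF pathway had a main probe. With heat 1 was called higher, 8 lower and 49 were not called, where 8.38% of all symbols were higher and 9.88% lower, and the median difference was -0.05 against -0.03 over all symbols. For Creole minus Large White 1 was higher, 2 lower and 55 not called, where 1.50% of all symbols were higher and 2.23% lower, with a median of -0.05 against -0.0016. The calls with heat depended on scaling, since 8 of 9 kept the call at the 75th percentile, 5 at the median and 1 with spike-in scaling, where the median of all probes moved from -0.02 to 0.08. With the leukocyte, brightness or connective covariate, 4, 3 and 2 of the 9 kept it.
Among ligands, carriers and processing enzymes (9 of 13 measured), IGF2, the ligand that IGFBP6 prefers, was at 15.79 ± 1.11 in Creole and 17.49 ± 0.19 in Large White pigs (SD, n = 12 each). The difference was -1.71 ± 0.31 (SE, limma adjusted p = 0.000995), and the other 7 of 7 IGF2 probes were called in the same direction. With heat IGF2 differed by 0.38 (adjusted p = 0.332). STC1, an inhibitor of the protease that frees IGF from IGFBP4, was lower in Creole pigs by limma (-0.70 ± 0.09, SE, adjusted p = 9.24e-06) and lower after heat (-0.31 ± 0.08, adjusted p = 0.0065), the latter not with spike-in scaling (-0.18, adjusted p = 0.194) or without breed in the model (-0.31, adjusted p = 0.0815). HTRA1, a protease that cuts IGFBPs, was higher after heat (0.32 ± 0.09, SE, adjusted p = 0.0116), a call lost with the leukocyte, connective or brightness covariate (0.10, 0.17 and 0.22).

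Of the growth hormone axis, 0 of 6 genes were called by limma in either contrast. GHR, the growth hormone receptor, differed by -0.22 with heat (adjusted p = 0.141), STAT5A by 0.16 and GHRHR by -0.09. Of the receptor kin, adaptors and brakes, 0 of 11 were called, with SOS1 at -0.15, GRB10 at -0.16 and PTPN11 at 0.08. Of the RAS and ERK arm, 0 of 7 were called, with NRAS at 0.13 and MAP2K1 at 0.09. These 3 groups thus gave no call on a main probe. Of other kept probes, 2 of GHR and 1 of STAT5B were called lower with heat. By breed, 1 of GHR, 1 of JAK2 and 3 of GRB10 were called, and 5 GRB10 probes ran opposite to its main probe.
The PI3K, AKT and mTOR arm, which carries the growth signal of IGF1R, had 6 of 20 genes lower with heat and 0 higher, with a median of -0.11, where 9.88% of all symbols were lower and 8.38% higher. MLST8, a shared subunit of both mTOR complexes, was at -0.30 (limma, adjusted p = 0.00255), the translation repressor EIF4EBP1 at -0.23 (adjusted p = 0.0133) and the kinase GSK3B at -0.26 (adjusted p = 0.0208), and all 3 lost the call with spike-in scaling. Of 14 alternatives, MLST8 kept it in 13 and EIF4EBP1 and GSK3B in 10 each. Of 5 genes of the FOXO arm, FOXO1, a transcription factor that AKT holds back, was lower with heat (-0.26, limma adjusted p = 0.0261). Its call was kept in 9 of 14 alternatives. It was lost with spike-in or median scaling (-0.11 and -0.20) and with the leukocyte, connective or brightness covariate (-0.15, -0.21 and -0.16). FOXO3 and FOXO4 were at 0.04 and -0.06 on their main probes. However, 2 other kept FOXO3 probes were lower with heat, and 1 of them was called. FBXO32, a ubiquitin ligase of muscle protein breakdown, was higher in Creole pigs (0.72 ± 0.20, SE, adjusted p = 0.0376), and lost the call in 5 of 14 alternatives (adjusted p up to 0.201). It was called in 22 of 35 fits with 1 array left out.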

How the data were processed

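Total RNA from 35 pigs was hybridised to 1-colour Cy3 Agilent arrays, 1 array each, on 5 slides. The deposited scanner files hold the intensity of each spot as the authors read it with Agilent Feature Extraction 10.10.1.1. The authors also deposited a table of log2 values (40649 probes), which followed the same arrays. Of 60306 non-control spots, 105 with an outlier flag were set to missing. Median pixel intensity was quantile normalised and put on a log2 scale, and no background was subtracted. Probes were kept as stated in the report.

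The model was fitted in R 4.3.3 with limma 3.58.1: breed plus temperature for the additive contrasts, and 1 mean per group for contrasts within breeds and the interaction. Benjamini-Hochberg adjustment ran over all 41517 kept probes. The labels do not name pen, slaughter day, father or mother, which the study used as random terms. The fits here leave them out, and p-values measure the spread between these pigs as if unrelated. The number of arrays limits the precision. The main probe was the kept probe of a symbol with the highest mean. All permutation tests were two-sided with 100000 resamples, within breeds for array measures (12 adjusted together) and within groups for correlations. The members and gene lists were chosen with earlier results of these data known. Of each pathway group the text names every called gene in the first 2 groups and the 3 genes with the smallest p in the others (1 gene and 1 probe sequence are not reported here), and for each member the 2 symbols most correlated with it over arrays. The script was tested on simulated data. Alternatives were other scalings, normexp background correction with an offset of 50, the deposited log2 table, filters, 1 value per symbol, slide as a block, array weights, marker and brightness covariates, temperature without breed, TN arrays only, and leaving out each array.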

Additional observations from a re-analysis of the deposited data

Results flagged for a closer look

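In 3 of 60 probe and group pairs, 1 array lay far from the others of its group by Dixon's criterion, which chance meets in about 1 of 20 groups. IGF1 on O14150 read 9.03 in Creole TN replicate 1, with the nearest array of its group at 9.40. Without this array the HS minus TN difference of that probe was 0.14 (limma, adjusted p = 0.109), against 0.17 with it. IGF2R on O10348 read 12.26 in F1 TN replicate 2, with the nearest array at 11.98. IGFBP3 on O12810 read 6.55 in F1 TN replicate 1, with the nearest at 6.18. In 0 of 10 probes examined did the HS arrays of one breed all move opposite to those of another.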

How the results depend on the processing

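With 1 value per symbol, the mean of the kept probes of a gene, 2 genes were called for HS minus TN. The number of main probes called for HS minus TN, 1, became 2 under median scaling, spike-in scaling and array weights, and 0 with the leukocyte, connective or brightness covariate. It was 1 to 2 with 1 array left out, and 2 without F1 HS replicates 1 or 2, Large White HS replicate 2, F1 TN replicate 2 or Large White TN replicate 6, where IGF1 O14150 passed. The Creole minus Large White count, 1, became 0 on TN arrays alone and stayed 1 with any array left out. For F1 minus Large White, 0 became 1 under median scaling, spike-in scaling, array weights and the leukocyte covariate, and without Creole TN replicate 1 (range 0 to 1). Within Creole it was 1 without Creole TN replicate 3 (0 to 1), and within Large White it was 1 with spike-in scaling. Signs turned for values that were not called: IGF2R with heat (-0.0115 with 1 value per symbol, -0.112 with the leukocyte and -0.109 with the connective covariate, -0.0736 with brightness, -0.0174 to 0.0334 with 1 array left out), IGFBP2 with heat (-0.0178 leukocyte, -0.0495 connective) and by breed (0.0131 connective), and IGFBP4 with heat (-0.288 leukocyte, -0.242 connective). So did IGFBP6 within Large White (-0.0226 leukocyte, -0.04 connective), on A_72_P442649 (-0.0188) and O9305 (-0.0078) with heat and the connective covariate, and IGFBP7 by breed (0.0127 connective, 0.102 on TN arrays) and with heat at the 75th percentile (-0.0149). The causes were not tested. No paired analysis was possible because the labels do not name litter or pen.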

Other observations

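With group means removed over the 35 arrays, the 36 pairs of main probes had a median r of 0.10, and 24 were above 0. IGFBP4 and IGFBP6 followed each other (r = 0.58, rho = 0.65, permutation adjusted p = 0.0139 and 0.00828 over 36 pairs, r = 0.56 without the 2 farthest arrays), and so did IGF1 O14150 and IGF2R O10348 (r = 0.64, rho = 0.50, permutation adjusted p = 0.0139 and 0.0461, r = 0.53 without the 2 farthest). However, O10348 did not follow the other IGF2R probes (r from -0.109 to 0.107), whereas those followed each other (r from 0.254 to 0.629). Relations of O10348 thus may not hold for IGF2R on its other probes. IGFBP4 and IGFBP5 ran opposite (r = -0.49, rho = -0.43, permutation adjusted p = 0.0392 and 0.057).

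The symbols most correlated with each main probe, given as a description with no test, were THBS3 (r = 0.87) and FKBP10 (0.85) for IGFBP6, ITGA5 (0.95) and CKAP4 (0.92) for IGFBP4, and RABGAP1 (0.89) and GFRA1 (0.86) for IGFBP5. For the others they were PGA5 (0.85) and RPL36AL (0.85) for IGF1, DSE (0.82) and CD9 (0.82) for IGF2R, and ACVR1 (0.67) and FAM13C (0.64) for IGF1R. IGFBP2 had MFAP2 (0.70) and MAOA (0.65), IGFBP3 had TSPAN15 (0.71) and ACE (0.68), and IGFBP7 had CCDC88B (0.73) and CFL2 (0.72).

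Of the marker lists whose mean was lower in HS pigs, some followed members over the 35 arrays with group means removed (permutation p adjusted over 126 relations for r and rho in turn). The erythroid mean ran opposite to IGF1 on O14150 (r = -0.60, rho = -0.43, permutation adjusted p = 0.0128 and 0.103, r = -0.41 without the 2 farthest arrays). IGFBP5 followed the muscle fibre mean (r = 0.57, rho = 0.48, permutation adjusted p = 0.0108 and 0.0416, r = 0.49 without them), and IGFBP7 the endothelium mean (r = 0.55, rho = 0.50, permutation adjusted p = 0.0122 and 0.0349, r = 0.47 without them). The satellite cell list, a single measured gene, ran opposite to IGF1 on O14150 (r = -0.48, rho = -0.54, permutation adjusted p = 0.0149 and 0.0141, r = -0.40 without them) and to IGF2R on O10348 (r = -0.54, rho = -0.51, permutation adjusted p = 0.0128 and 0.0223, r = -0.42 without them), and followed IGFBP5 (r = 0.50, rho = 0.52, permutation adjusted p = 0.0131 and 0.0202, r = 0.46 without them).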
